A study of Homo sapiens with 6 samples.

Results

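The genes that encode the proteins of the cytosolic and the mitochondrial ribosome were compared between arrays labelled miR-196b and arrays of empty-vector cells, both from the line HCT116, which the series text spells so and the sample labels spell HTC116. Members were the probe sets whose platform gene symbol has the form of a ribosomal protein name (RPL, RPS, RPLP or RPSA for the cytosolic ribosome, MRPL or MRPS for the mitochondrial one), with no pseudogene symbols. The rule reads symbols and no measured value, but these genes were taken up with earlier results of these data known. This gave 123 of 14884 named genes, 50 cytosolic and 73 mitochondrial, on 57 and 82 probe sets. The annotation of GRCh38.p14 lists 82 and 77 protein-coding genes with such names, and those without a named probe set were not analysed here.

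HCT116 is an established human colorectal carcinoma line, and both groups were stably transduced, 1 to overexpress miR-196b by its label and 1 with the vector alone. The MIR196B probe set did not rise past the test in the arrays labelled miR-196b, while that of MIR196A2 did. The label may name the construct loosely, which was not tested, and it is used below as a label only. There were 3 arrays in each group, named in the labels as biological replicates. The labels do not say whether each array came from its own transduction or whether the cells were a pool or a clone, so a p-value covers no more than the variation among the 6 samples, which may be technical. Each value is a log2 signal of 1 probe set on 1 array, and a change is the mean of the miR-196b-labelled arrays minus the mean of the empty-vector arrays. In bulk RNA, fewer cells of a type and less RNA per cell cannot be told apart.

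A ribosome is built from a large and a small subunit, each an assembly of ribosomal RNA and proteins. Cytosolic ribosomes translate nuclear messages, and their protein genes are transcribed together at high rates. Their mRNAs begin with a tract of pyrimidines, the 5′ terminal oligopyrimidine (TOP) motif, through which the mTOR kinase and LARP1 control their translation. Mitochondrial ribosomes translate the few messages of the mitochondrial genome, all for subunits of the respiratory chain and the ATP synthase. Their proteins are encoded in the nucleus and imported, and their promoters share factors such as the ETS protein GABP with other genes for mitochondrial proteins.

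The microRNA named in the label and its near relative are shown because the arrays carry probe sets for both. The seed, bases 2 to 8, is in capitals (RefSeq, GRCh38.p14).
hsa-miR-196b-5p: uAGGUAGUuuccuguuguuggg
hsa-miR-196a-5p: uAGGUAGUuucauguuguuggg
MIR196B lies at chr7:27169528-27169549 on the minus strand and MIR196A2 at chr12:53991762-53991783 on the plus strand, by the span of the mature form. The mature sequences share the seed and differ at 1 of 22 positions, C12A, counted from the 5′ end of miR-196b-5p. No UTR sequence was used here, so seed matches in ribosomal protein messages were not examined.

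The starts of transcription of ribosomal protein genes are shown because the classes differ there in the share with a pyrimidine tract. Each line has 20 bases before and 10 bases from the annotated start, with the first 5 transcribed bases in capitals (RefSeq, GRCh38.p14). The 4 mitochondrial genes are those under an unadjusted p of 0.05 with a promoter entry, and the 5 cytosolic genes had the smallest p of that class with an entry.
MRPS7: gcgccgagggcagtccttgtGGGGTcctcg
MRPL34: ccggagcgaacggcccgcccAGGTGgtctg
MRPL24: ggaggggacgctgagggcccATGTGctgaa
MRPL36: ggcagcagcgtccgcgtgccAGTGCgcaga
RPL9: tacaagtacgtaatgacgacAGACGttctt
RPL31: ctcccacaatccttcgcgctCTTCCtttcc
RPL35: aggtcagccccgcctacttcCTCTTtccct
RPL26: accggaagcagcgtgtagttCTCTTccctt
RPS29: ttttcccccgagcgcgcagcTGGCAgcggt
These windows are chr17:75261859-75261888 (plus strand) for MRPS7, chr19:17292553-17292582 (plus) for MRPL34, chr1:156741079-156741108 (minus) for MRPL24 and chr5:1799828-1799857 (minus) for MRPL36. The cytosolic windows are chr4:39458913-39458942 (minus) for RPL9, chr2:101002269-101002298 (plus) for RPL31, chr9:124861948-124861977 (minus) for RPL35, chr17:8383184-8383213 (minus) for RPL26 and chr14:49598701-49598730 (minus) for RPS29. The start of RPL31, RPL35 and RPL26 is a C followed by at least 4 pyrimidines, the form of a TOP start. None of the 4 mitochondrial genes shown has it, nor do RPL9 and RPS29 at the annotated base.

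Over all members with an entry, 28 of 45 cytosolic promoters (62.2%) had C followed by 4 pyrimidines at the start, against 5 of 65 mitochondrial ones (7.69%) and 4.04% of 27305 promoters. Allowing the tract to begin up to 5 bases from the annotated start gave 77.8% of cytosolic, 21.5% of mitochondrial and 21.1% of all promoters. The ETS core CCGGAAG, searched on both strands of the 300 bases, was in 28 mitochondrial promoters (43.1%), in 13 cytosolic ones (28.9%) and in 10.7% of all. The core of YY1, AAGATGGCG, was in 12 mitochondrial promoters (18.5%), in 3 cytosolic ones (6.67%) and in 1.85% of all. The ETS and YY1 cores share letters and can overlap. In 4 mitochondrial promoters both were found, with 0 of these overlapping. The TATA box TATAAA was in 3.08% of mitochondrial, 6.67% of cytosolic and 11.95% of all promoters. The E-box CACGTG (7.69%, 4.44% and 7.43%), the NRF1 core GCGCATGCG (3.08%, 2.22% and 2.10%) and the CRE TGACGTCA (0, 2.22% and 1.98%) gave the shares in brackets for mitochondrial, cytosolic and all promoters. A match is a description of letters and not a bound site.

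**Figure D1:**
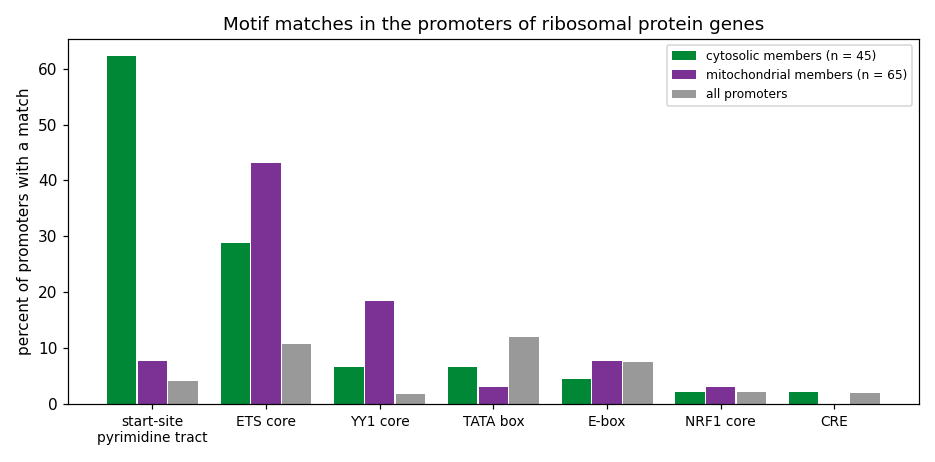
Percent of promoters (250 bases before to 50 after the start) that hold each motif, for 45 cytosolic members, 65 mitochondrial members and all 27305 promoters. The pyrimidine tract at the start is in 62.2% of cytosolic promoters, and the ETS core is in 43.1% of mitochondrial ones.

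In the arrays, MIR196B was at 8.05 ± 0.144 in miR-196b-labelled cells and 7.97 ± 0.102 in empty-vector cells, and MIR196A2 at 10.6 ± 0.149 in miR-196b-labelled cells and 3.06 ± 0.167 in empty-vector cells (log2, SD, n = 3 each). The log2 changes were 0.08 (limma adjusted p = 0.819) for MIR196B and 7.55 (adjusted p = 4.53e-07) for MIR196A2. The arrays thus show no rise past the test for the microRNA gene that the label names, and every direction given here compares arrays by their labels. In the list that holds both microRNA genes, GALNT5 was lower past the test, with a log2 change of -1.09 (limma adjusted p = 0.0234). HOXB7 (-0.64, adjusted p = 0.0974) and MIR196A1 (-0.27, adjusted p = 0.622) were lower and did not pass. Arrays correlated at r = 0.994 to 0.995 within and 0.992 to 0.994 between groups, across probe sets. Of 10 colon epithelial markers 8 were measured, and their summed log2 level was 57.6 to 58.5 in miR-196b-labelled cells and 58.9 to 59.5 in empty-vector cells. The means were 10.90 for EPCAM, 11.1 for KRT18 and 5.82 for CDX2 in miR-196b-labelled cells, and 11.02, 11.3 and 6.08 in empty-vector cells. KRT8, KRT19, KRT20, CDX1 and VIL1 were at 6.63, 10.09, 4.31, 5.20 and 4.18 in miR-196b-labelled cells. In empty-vector cells they were at 6.72, 10.09, 4.64, 5.21 and 4.13. Of the 8, 6 were lower in miR-196b-labelled cells and 2 higher, and 0 passed. KRT18, KRT20 and CDX2 had all 3 miR-196b-labelled arrays below all 3 empty-vector arrays. That is 3 of the 8 separated lower, and 0 were separated higher, where 7.24% and 10.3% of all genes were. These 3 were also under an unadjusted p of 0.05 (limma), as were 4.11% of all genes in that direction. Of 7 fibroblast markers 3 were measured (summed 9.17 to 9.67 in miR-196b-labelled cells, 9.24 to 9.61 in empty-vector cells), with LUM at 2.18, DCN at 2.36 and THY1 at 4.85 in miR-196b-labelled cells, and at 2.00, 2.37 and 5.01 in empty-vector cells. Of 7 blood markers 3 were measured (summed 14.8 to 15.9 in miR-196b-labelled cells, 14.7 to 15.6 in empty-vector cells). CD68, LYZ and CSF1R were at 7.51, 3.49 and 4.31 in miR-196b-labelled cells. In empty-vector cells they were at 7.71, 3.298 and 3.999. The signal of CD68 thus lay above that of the epithelial marker CDX2 in both groups. Signals of different probe sets do not rank the amounts of their transcripts. CSF1R was separated higher (log2 change 0.31, limma adjusted p = 0.476), and 0 of the 3 blood markers passed. LUM was separated higher too (log2 change 0.18, limma adjusted p = 0.545), and 0 of the 3 fibroblast markers passed. The marker lists differ in length, so their sums cannot be compared with each other. The part of these differences in the results below was not tested.

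Small differences ran through the mitochondrial ribosomal protein genes, and no gene of either ribosome changed past the test. Of the 73 mitochondrial genes, 59 (80.8%) were lower in miR-196b-labelled cells and 14 higher, with a median log2 change of -0.082, or 1.06-fold lower. Of the 50 cytosolic genes, 31 (62.0%) were lower and 19 higher, with a median of -0.015. Among all named genes 47.8% were lower, and their median was 0.0076. At an adjusted p below 0.05, 0 of 57 cytosolic and 0 of 82 mitochondrial probe sets passed, where 0.0559% of 16098 named probe sets did (limma, Benjamini-Hochberg). At an unadjusted p below 0.05, 5 mitochondrial genes were lower (6.85%, against 4.11% of all genes) and 0 were higher (5.75% of all genes), and 0 cytosolic genes passed either way.

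All 3 miR-196b-labelled arrays lay below all 3 empty-vector arrays for 19 mitochondrial genes (26.03%), against 7.24% of all genes. The opposite separation occurred for 0 mitochondrial genes, against 10.3% of all genes. Cytosolic genes had 4 separated lower (8%) and 4 separated higher (8%), near the background. The 19 mitochondrial genes were 12 of the large and 7 of the small subunit, lay on 11 chromosomes and were lower by 1.03-fold to 1.39-fold. For each of them the two-sided permutation p, computed exactly over the arrays, is 0.1, the smallest that this design allows.

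**Figure D2:**
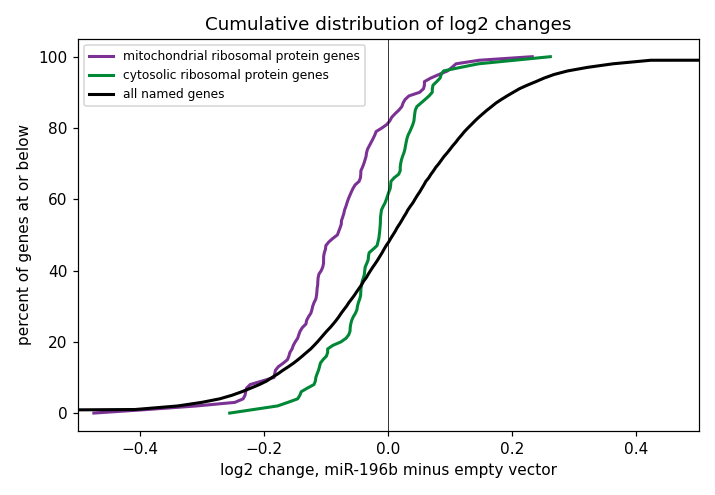
Percent of genes at or below each log2 change (miR-196b minus empty vector), for 73 mitochondrial, 50 cytosolic and all 14884 named genes, 1 probe set per gene. The mitochondrial curve lies to the left of the others over most of its length, with its median at -0.082, and the cytosolic curve is the steepest.

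Relative to the cytosolic class, the mitochondrial class was lower on every miR-196b array than on any empty-vector array, by less than 0.1 on average on the log2 scale. Taken as the median over genes relative to each gene's empty-vector mean, the mitochondrial class was at -0.051, -0.061 and -0.133 in miR-196b-labelled cells and at -0.032, 0.0096 and 0.031 in empty-vector cells (log2). The cytosolic class was at -0.0028, 0.0012 and -0.0001 in miR-196b-labelled cells and at -0.020, 0.0045 and 0.025 in empty-vector cells. The 3 miR-196b-labelled arrays therefore lay below the 3 empty-vector arrays for the mitochondrial class and within their range for the cytosolic class. The mitochondrial minus cytosolic value was -0.048, -0.062 and -0.133 in miR-196b-labelled cells and -0.012, 0.0051 and 0.0066 in empty-vector cells. Its mean was -0.081 ± 0.046 in miR-196b-labelled cells and -0.0002 ± 0.011 in empty-vector cells (SD, n = 3 each), and it was not tested, since it is a score over the members. The difference of the median changes themselves was -0.067.

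Replicate 3 of the miR-196b-labelled arrays stood furthest down. It was the lowest of the 6 arrays for 42 of 73 mitochondrial genes and the highest for 0, while empty-vector replicate 3 was the highest for 28. Over all 14884 genes the miR-196b-labelled replicate 3 was lowest for 2774 and highest for 2860. Without it, 51 of 73 mitochondrial genes were lower and their median change was -0.060. Among cytosolic genes the same array was lowest for 12 of 50 and highest for 11.

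Within each ribosome the subunits differed in their counts, with no test of the difference. In the mitochondrial large subunit 41 of 48 genes were lower (median -0.10), and in the mitochondrial small subunit 18 of 25 (median -0.044). In the cytosolic large subunit 24 of 32 were lower (median -0.042), while in the cytosolic small subunit 7 of 18 were lower and 11 higher (median 0.039). The cytosolic small subunit held all 4 of the cytosolic genes separated higher, 22.2% of its genes against 10.3% of all genes. The cytosolic large subunit held all 4 separated lower, 12.5% of its genes against 7.24% of all genes. Each share rests on 4 genes.

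**Figure D3:**
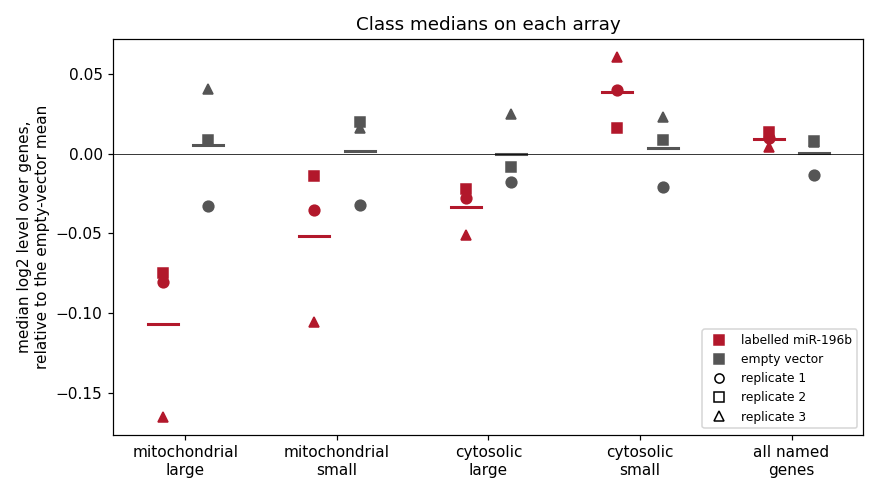
Median log2 level over the genes of each class on each array, relative to the mean of the empty-vector arrays, with miR-196b-labelled arrays left of empty-vector arrays, a symbol per replicate and a bar at the group mean. The mitochondrial large subunit sits at -0.080, -0.075 and -0.165 on the miR-196b-labelled arrays, and all named genes lie within 0.02 of 0 on every array.

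MRPS7, the homologue of a bacterial small-subunit protein that organises the head around the 3′ domain of the ribosomal RNA, had the largest log2 difference of any member. Its signal was 9.20, 9.39 and 9.25 in miR-196b-labelled cells and 9.70, 9.78 and 9.79 in empty-vector cells (log2). The groups were separated by more than the spread within either. It was 1.39-fold lower, a log2 change of -0.47 (SE 0.08), and did not pass (unadjusted p = 5.53e-04, limma adjusted p = 0.251).

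MRPL34, the homologue of a small basic protein of the bacterial large subunit, had 9.48, 9.30 and 9.31 in miR-196b-labelled cells and 9.71, 9.67 and 9.77 in empty-vector cells (log2). The arrays did not overlap, and MRPL34 was 1.28-fold lower in miR-196b-labelled cells (log2 change -0.35, SE 0.08, limma adjusted p = 0.338). With a variance prior that follows the level and is robust to outliers, MRPS7 (adjusted p = 0.00292) and MRPL34 (0.0201) passed. They were the only members called under any alternative, where the same setting called 91 named probe sets instead of 9.

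MRPL24, the homologue of a bacterial protein that binds early in large-subunit assembly, had 8.31, 8.35 and 8.25 in miR-196b-labelled cells and 8.55, 8.51 and 8.52 in empty-vector cells (log2 change -0.22). The empty-vector arrays lay close together and the miR-196b-labelled arrays below them. MRPL36, the homologue of a small zinc-binding protein of the bacterial large subunit, had 6.21, 6.25 and 6.02 in miR-196b-labelled cells and 6.32, 6.41 and 6.45 in empty-vector cells (log2 change -0.23). MRPL2, whose bacterial homologue lies beside the peptidyl transferase centre, had 10.2, 10.4 and 10.3 in miR-196b-labelled cells and 10.4, 10.5 and 10.5 in empty-vector cells (log2 change -0.18). These 3 were under an unadjusted p of 0.05 and had limma adjusted p-values of 0.415, 0.474 and 0.493.

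**Figure D4:**
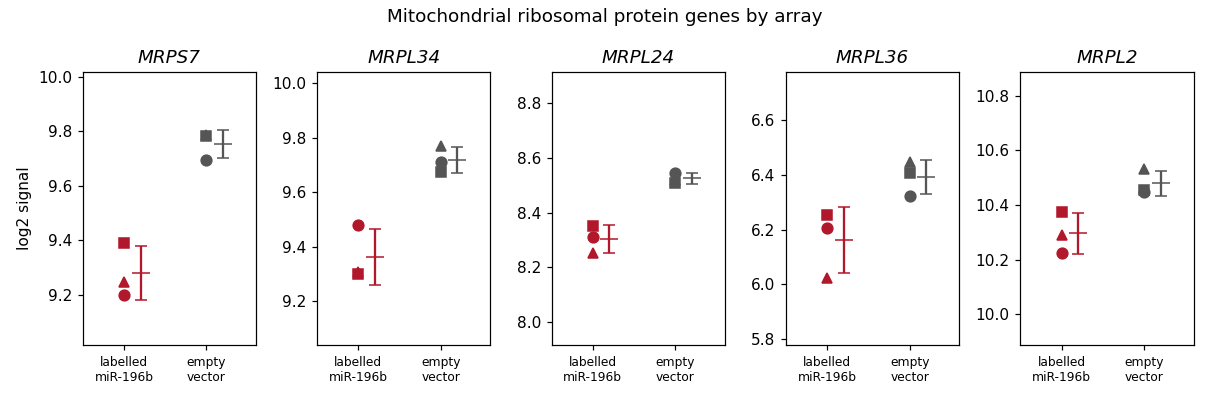
Log2 signal on each array for the 5 mitochondrial ribosomal protein genes under an unadjusted p of 0.05, with circle, square and triangle for replicates 1, 2 and 3 and the mean with its SD beside them. Every panel spans the same range of 1 log2 unit, and the 3 miR-196b-labelled arrays lie below the 3 empty-vector arrays in each.

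Other genes of the mitochondrial large subunit were nearer the spread of the arrays. MRPL32, whose maturation by the m-AAA protease is a step of ribosome assembly in yeast and mouse, had 5.81, 5.85 and 5.77 in miR-196b-labelled cells and 5.93, 5.99 and 5.98 in empty-vector cells. MRPL18 had 8.57, 8.74 and 8.37 in miR-196b-labelled cells against 8.75, 8.78 and 8.85 in empty-vector cells, and MRPL46 had 8.16, 8.08 and 8.06 in miR-196b-labelled cells against 8.17, 8.23 and 8.44 in empty-vector cells. These 3 were separated, with log2 changes of -0.15, -0.23 and -0.18. MRPL52, a protein with no bacterial counterpart, went the other way, with 6.54, 6.38 and 6.19 in miR-196b-labelled cells and 6.06, 6.15 and 6.21 in empty-vector cells. Its groups overlapped, and its log2 change of 0.23 was the highest of the mitochondrial class (limma adjusted p = 0.509). The remaining higher genes of the large subunit were MRPL17 (0.09), MRPL50 (0.06), MRPL1 (0.02), MRPL10 (0.02), MRPL53 (0.02) and MRPL23 (0.0023).

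In the mitochondrial small subunit, MRPS2, the homologue of a bacterial protein between head and body of the subunit, had 6.13, 6.18 and 6.01 in miR-196b-labelled cells and 6.55, 6.19 and 6.32 in empty-vector cells. The groups were separated by 0.02 between the nearest arrays, and the log2 change was -0.25 (limma adjusted p = 0.505). A further MRPS2 probe set had a log2 change of -0.098 with overlapping groups. MRPS34, a mitochondria-specific subunit, had 9.94, 10.06 and 9.87 in miR-196b-labelled cells and 10.1, 10.2 and 10.0 in empty-vector cells (log2 change -0.18). MRPS17 had 8.59, 8.35 and 8.35 in miR-196b-labelled cells and 8.56, 8.58 and 8.63 in empty-vector cells (log2 change -0.16). Both overlapped. MRPS11, MRPS16, MRPS21, MRPS33 and MRPS18A were separated lower by -0.12, -0.13, -0.11, -0.12 and -0.044. MRPS25 (0.11), MRPS31 (0.10), MRPS28 (0.07), MRPS22 (0.06), MRPS12 (0.06), MRPS27 (0.03) and MRPS18B (0.0066) were higher in signal, none with separated groups.

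The cytosolic genes scattered tightly around 0. The log2 changes had quartiles of -0.060 and 0.028, against -0.089 and 0.10 for all genes. Their median SD within groups was 0.056, against 0.0795 for mitochondrial genes and 0.127 for all genes. Both classes were brighter, with median levels of 8.32 (cytosolic) and 8.11 (mitochondrial) against 5.69 for all genes. A cytosolic gene had a 95% interval of 0.17 to either side of its change at the median. A p that misses the threshold does not show equal levels. RPL8, RPL10, RPL11 and RPL41, proteins of the large subunit, had log2 changes of 0.02, 0.02, 0.0044 and 0.03. RPL11, which also binds MDM2 when ribosome assembly is disturbed, had 10.7, 10.8 and 10.8 in miR-196b-labelled cells and 10.8, 10.7 and 10.8 in empty-vector cells.

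**Figure D5:**
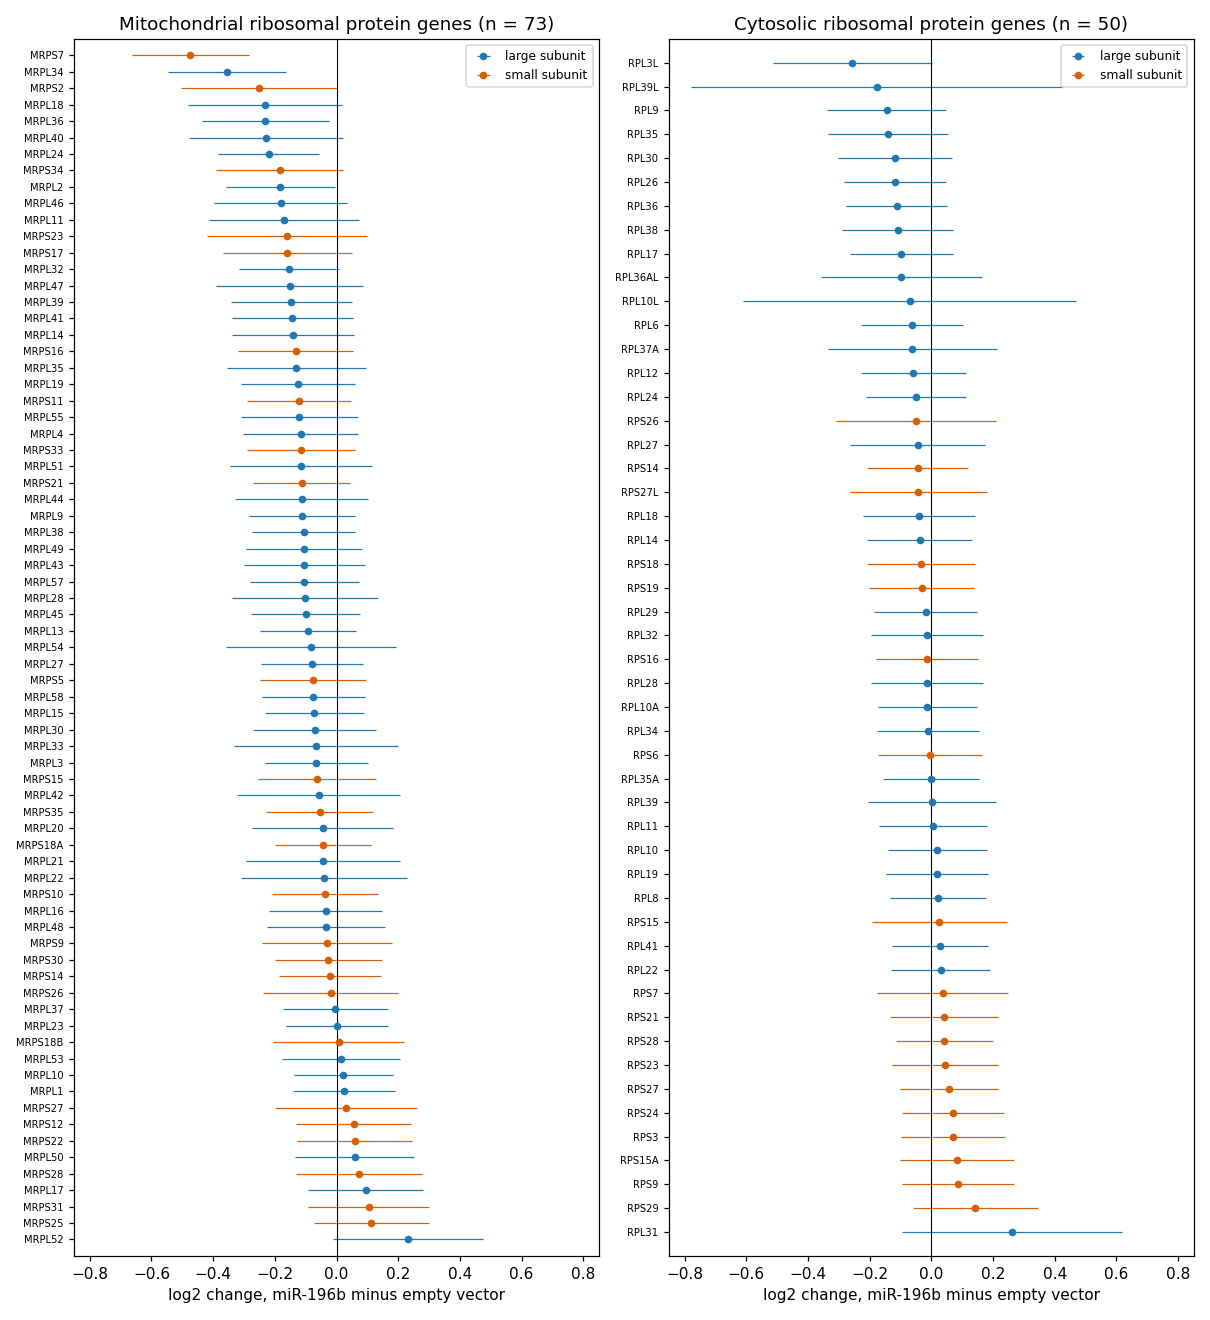
Log2 change of each member gene (miR-196b minus empty vector) with its 95% interval from limma, coloured by subunit, with 73 mitochondrial genes on the left and 50 cytosolic genes on the right. Points of the mitochondrial genes lie mostly left of 0, from -0.47 for MRPS7 to 0.23 for MRPL52, and cytosolic points lie on both sides.

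RPL3L, the form of RPL3 used in striated muscle, had the lowest unadjusted p of the cytosolic genes. It was at 4.65, 4.83 and 4.47 in miR-196b-labelled cells and 5.02, 4.84 and 4.86 in empty-vector cells, with a log2 change of -0.26 and an SE of 0.11 (limma adjusted p = 0.506). The nearest arrays of the groups differed by less than 0.01. RPL31, a protein near the exit of the peptide tunnel, had 5.12, 4.87 and 4.97 in miR-196b-labelled cells and 4.53, 4.59 and 5.06 in empty-vector cells, and its groups overlapped (log2 change 0.26, limma adjusted p = 0.602). RPL9 (-0.14) and RPL35 (-0.14) overlapped too. The probe sets of RPL3L and RPL31 were dim, with means of 4.78 and 4.85 over the 6 arrays. The median was 5.59 for named probe sets and 8.32 for cytosolic genes.

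Other cytosolic large-subunit genes with separated groups were RPL26 (-0.12), RPL36 (-0.11) and RPL17 (-0.098). RPL26 was at 9.38, 9.48 and 9.44 in miR-196b-labelled cells and at 9.59, 9.53 and 9.53 in empty-vector cells. In the small subunit, RPS15A (0.08), RPS3 (0.07), RPS27 (0.06) and RPS28 (0.04) were separated higher. RPS27, a zinc-finger protein, was at 12.74, 12.77 and 12.79 in miR-196b-labelled cells and 12.67, 12.73 and 12.72 in empty-vector cells. RPS29, another zinc-binding protein of this subunit, was at 8.79, 8.73 and 8.94 in miR-196b-labelled cells and 8.60, 8.70 and 8.73 in empty-vector cells, with overlapping groups (log2 change 0.14, limma adjusted p = 0.616). RPS9 and RPS24 had log2 changes of 0.09 and 0.07.

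Members with close relatives were compared with them. RPS27L, a p53-induced relative of RPS27, had a log2 change of -0.042 (RPS27 0.06). RPL22L1, the relative that can replace RPL22, is outside the naming rule and had 6.704, 6.625 and 6.646 in miR-196b-labelled cells and 6.731, 7.001 and 7.021 in empty-vector cells. Its groups were separated with a log2 change of -0.26 (limma adjusted p = 0.467), while RPL22 was at 0.03. RPL26L1 (-0.13) and RPL26 (-0.12) had similar values. RPL10L and RPL39L, copies used in the testis, had mean levels of 2.83 and 2.83 in miR-196b-labelled cells and 2.90 and 3.01 in empty-vector cells, under the lower quartile of 3.90 of the named probe sets, and their SDs reached 0.408 and 0.575. No detection call was used here. MRPS18A had a log2 change of -0.044 and MRPS18B of 0.0066.

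Sequence copies bear on the cytosolic values. In the annotation, 45 of the 50 cytosolic genes have at least 1 pseudogene named after them, 957 in all, with a median of 13 per gene and 64 for RPL31. Of the 73 mitochondrial genes 38 have one, 90 in all, with a median of 1. Probe sequences were not used here, so signal from such copies could not be told apart from that of the gene and the cytosolic values are uncertain in this respect. Of the members, 8 had several probe sets. RPL39 differed most, with log2 changes of 0.0036 and 0.21. RPL41 ranged from -0.076 to 0.03 over 5 probe sets, MRPL44 had -0.11 and 0.03, and the 7 probe sets of MRPS18B held the same values.

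Log2 changes were set beside the promoter features, with no test. Mitochondrial genes with the YY1 core had a median log2 change of -0.042 (9 of 12 lower) and those without it -0.10 (45 of 53 lower). Mitochondrial genes with the ETS core had -0.073 (23 of 28 lower) and those without it -0.11 (31 of 37 lower). Of the 19 mitochondrial genes separated lower, 16 had a promoter entry. Among these 16, 5 (31.25%) held the YY1 core and 5 (31.25%) the ETS core. Over all 65 mitochondrial promoters the shares were 18.5% and 43.1%. Cytosolic genes with a pyrimidine tract at the start had a median of -0.013 (18 of 28 lower) and those without one -0.015 (10 of 17 lower).

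Genes that make or work with ribosomes were read from lists chosen with the members. Of 33 ribosome biogenesis factors, which process ribosomal RNA and assemble subunits in the nucleolus, 22 were measured. Of these 21 were lower and 1 higher, with a median of -0.098, and 0 passed (lowest limma adjusted p = 0.426). At an unadjusted p below 0.05, 5 were lower and 0 higher, where 4.11% and 5.75% of all genes were. Of the 22, 9 were separated lower and 1 higher, where 7.24% and 10.3% of all genes were. LTV1, a small-subunit assembly factor, had 9.68, 9.80 and 9.69 in miR-196b-labelled cells and 9.88, 10.02 and 10.00 in empty-vector cells (log2 change -0.24). GAR1, a protein of the pseudouridylation complex, had -0.24 and MYBBP1A, a nucleolar MYB-binding protein, -0.18, both separated. NCL, which encodes nucleolin, was the 1 higher factor (0.13, separated). MYC, a transcription factor that drives ribosome production, was at 10.2, 10.3 and 10.4 in miR-196b-labelled cells and 10.4, 10.4 and 10.5 in empty-vector cells (log2 change -0.15, separated, limma adjusted p = 0.578). MXI1, an antagonist of MYC, had 0.19 and TSC1, an inhibitor of mTOR signalling, 0.17, both separated. In the list of regulators that holds these 3, 10 of 20 genes were measured, 5 lower and 5 higher, and 0 passed. Of the 10, 1 was separated lower and 2 higher, where 7.24% and 10.3% of all genes were. The others overlapped: TSC2 (-0.085), EIF4EBP1 (-0.096), MAX (-0.036), YY1 (-0.029), EIF4EBP2 (0.056), MTOR (0.020) and NRF1 (0.0023).

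Of 30 factors of mitochondrial translation and mitoribosome assembly other than the members, 22 were measured, 16 lower and 6 higher (median -0.052), and 0 passed (lowest limma adjusted p = 0.482). Of the 22, 3 were separated lower and 1 higher, where 7.24% and 10.3% of all genes were. CHCHD1, a protein of the mitochondrial small subunit with a name outside the rule, had -0.20, MTERF4, which acts in mitoribosome assembly, had -0.18, MRM3, a methyltransferase of mitochondrial ribosomal RNA, -0.17 and MTRFR, a rescue factor of stalled mitoribosomes, 0.18, and these 4 were the separated ones. Among 18 cytosolic translation genes with TOP-type or related starts, 9 were measured, 5 lower and 4 higher with a median of -0.0003, and 0 passed. FAU, which encodes a small-subunit protein fused to a ubiquitin-like part, had -0.15, HNRNPA1 -0.089 and EEF1D -0.092, and the highest was EIF4B, an initiation factor, at 0.06. All 7 genes with ribosomal-like names outside the rule were measured, and 5 were lower. Of them RPS19BP1 (-0.24), MRTO4, an assembly factor related to the stalk protein P0 (-0.26), and RPL22L1 were lower at an unadjusted p below 0.05, as were 4.11% of all genes, and 0 passed (lowest limma adjusted p = 0.432).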

How the data were processed

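Total RNA of 6 HCT116 cultures was labelled with a whole-transcript kit and measured on arrays, per the labels' protocols. The deposited log2 values, 1 per probe set and array, were made by the authors with RMA and Partek 6.6, per the submitters' processing notes, which give no order or options. RMA includes quantile normalization, so shifts of whole arrays are removed, and array medians were 4.34 to 4.37. Depth has no meaning for arrays, and their number limits the precision. The genome build is not given in the sources used here. Probe sets were named from the platform annotation with symbols updated to GRCh38.p14 (16098 of 53617 named, each with 1 symbol). Probe sets with no symbol or with several were left out, and both kinds are called unnamed here.

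All 16098 named probe sets were fitted with limma 3.58.1 in R 4.3.3 (lmFit, eBayes, no block), with Benjamini-Hochberg adjustment over all of them and a threshold of 0.05. Where a gene had several probe sets, its brightest stood for it in counts and medians. The fit was tested on simulated data. Members and lists were chosen with earlier results of these data known, and lists are described by counts and medians. Named genes were, per subunit of each ribosome, the 4 with the smallest p and the members of highest and lowest level, plus relatives, genes whose probe sets disagreed most and up to 3 genes per list. Separated genes and a few others were named after their values were seen. Deviations of same-numbered arrays correlated at 0.031, 0.037 and 0.0085, so the numbers were not taken as pairs. Alternatives were a filter on dim probe sets, other variance priors, centring, repeated quantile normalization, array weights, a replicate block, all probe sets, mean probe sets and each array left out.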

Additional observations from a re-analysis of the deposited data

Results flagged for a closer look

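Unnamed probe sets, those with no symbol or with several, entered no comparison above. When limma was run on the whole array, 2 of them passed with higher signal in miR-196b-labelled cells than in empty-vector cells. Probe set 17118492 had a log2 change of 8.09 and probe set 16793142 one of 1.499, and they are singled out because their signal exceeded that of the controls. A further 8 unnamed probe sets passed with lower signal in miR-196b-labelled cells, by log2 changes of -1.50 (2 probe sets of equal values), -2.65, -5.98, -6.32 and -7.27 (3 probe sets of equal values). None of the 10 can be assigned to a ribosomal protein gene here.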

How the results depend on the processing

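Under 15 alternatives the 16 ribosomal protein genes followed kept their direction wherever they were fitted. These 16 were picked by smallest p in these same data. Settings that alter only the variance, the block or the probe sets tested leave a log2 change as it was. Under those settings the direction could not change. MRPS7 and MRPL34 passed with a trended, robust variance prior, which gave 2 mitochondrial probe sets past the threshold. The other alternatives gave 0 in both ribosomes. The named probe sets past the threshold numbered 22 without the dimmest 40%, 91 with the trended, robust prior, 5 without variance moderation, 2 with all probe sets tested, 1 with the replicate block and 2 to 3 with an array left out, against 9. With the replicate block 0 ribosomal protein probe sets passed, and in the main fit the replicate numbers were not taken as pairs. The mitochondrial median log2 change ran from -0.099 to -0.060, both with an array left out, and the mitochondrial minus cytosolic difference from -0.088 to -0.054. The cytosolic median was -0.015 and changed sign without empty-vector replicate 3 (0.0019), with arrays left out giving -0.019 to 0.0019, so it has no settled direction. Among genes brighter than the dimmest 40%, 45.04% were lower and the median was 0.016. For these shifts the cause was not tested. With 3 arrays a group and no detection calls, the fit to simulated data called 2% of genes changed 1.25-fold and 38% of those changed 1.5-fold. These were 50 per size drawn from all named probe sets, with 7 false calls in the run. For genes drawn so, most changes of the size seen here lie below what the fit can call. Members varied less within groups (median SD 0.073, against 0.127 for all genes), and the share of them that would be called was not tested.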
